A study of Phaseolus vulgaris with 24 samples.

Results

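Leaves and roots of Ispir, a common bean (Phaseolus vulgaris) genotype that the study describes as salt-tolerant, were compared in plants grown without added salt. The 6 libraries of this comparison, 3 of leaf and 3 of root, are those that the deposited labels give as control Ispir, out of 24 libraries in the series. The whole series compared leaf and root RNA of the genotypes Ispir and TR43477 under control and salt conditions, in 8 groups of 3 libraries. Control Ispir leaf and root samples shared all growth conditions: hydroponic culture in Hoagland solution, a day of 16 h of light at 24 °C and a night of 8 h at 20 °C. Of the groups set beside them, control TR43477 leaf and root had the same conditions in the other genotype, except that seedlings left the trays for hydroponics 8 days after sowing in TR43477 and 9 days after sowing in Ispir, and salt-treated Ispir leaf and root came from plants brought to 125 mM NaCl. The methods describe RNA from leaf and root tissue of 3 plants for each condition, as biological replicates. Leaf and root may thus come from the same plants, and it is not stated whether libraries of the same number came from 1 plant.

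Leaves hold the chloroplasts, where light-harvesting complexes (the Lhca and Lhcb antenna proteins) pass energy to photosystems I and II, plastocyanin and ferredoxin carry electrons between and after them, ATP synthase makes ATP and Rubisco fixes CO2. Roots import carbon as sucrose, break it down through glycolysis, and take up nitrate, ammonium, iron, zinc, manganese and potassium through transporters and reductases of the plasma membrane. Nuclear genes encode only some subunits of the photosynthetic complexes, and poly(A) libraries such as these mostly miss the chloroplast-encoded ones.

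The 3 leaf libraries held 13553505, 21320920 and 21246560 counts, against 13323859, 12743363 and 14061479 counts in the 3 root libraries, within a range of 12163655 to 26416766 over the series. Pearson correlations of log2 CPM (a gene's counts relative to the library total, scaled by TMM normalization) were 0.953 to 0.979 between leaf libraries, 0.981 to 0.994 between root libraries and 0.640 to 0.671 between a leaf and a root library. Leaf libraries varied more: over 16669 genes the median coefficient of variation was 21.4% in leaves and 10.5% in roots, and it was larger in leaves for 76.4% of genes. No pair of libraries agreed within counting noise. A count of 0 allows a level of up to 3 counts, which corresponds to a mean of 0.186 CPM in a leaf library and 0.201 CPM in a root library. Such limits cover counting error only.

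Of 23824 genes with a count, 9490 differed between the tissues past the thresholds of the study (absolute log2 fold change above 1 and adjusted p under 0.01, edgeR's quasi-likelihood test), which is 39.8%. Of these, 3973 were higher in leaf (16.7% of the genes tested) and 5517 were lower in leaf (23.2%). Fold changes are given as log2 of leaf over root, so that a positive value is higher in leaf. They were large in many genes: 1476 of the genes higher in leaf had a log2 fold change above 4 and 2667 of the genes lower in leaf had one below -4, together 43.7% of the called genes. The 3 leaf values and the 3 root values did not overlap in 69.6% of genes (leaf above root in 30.6%, leaf below root in 39.0%). The median over all genes was -0.15. With scaling by library size alone, that median was shifted by -0.31, and 3336 genes were called higher and 6634 lower, so the balance of the directions depends on the scaling.

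**Figure D1:**
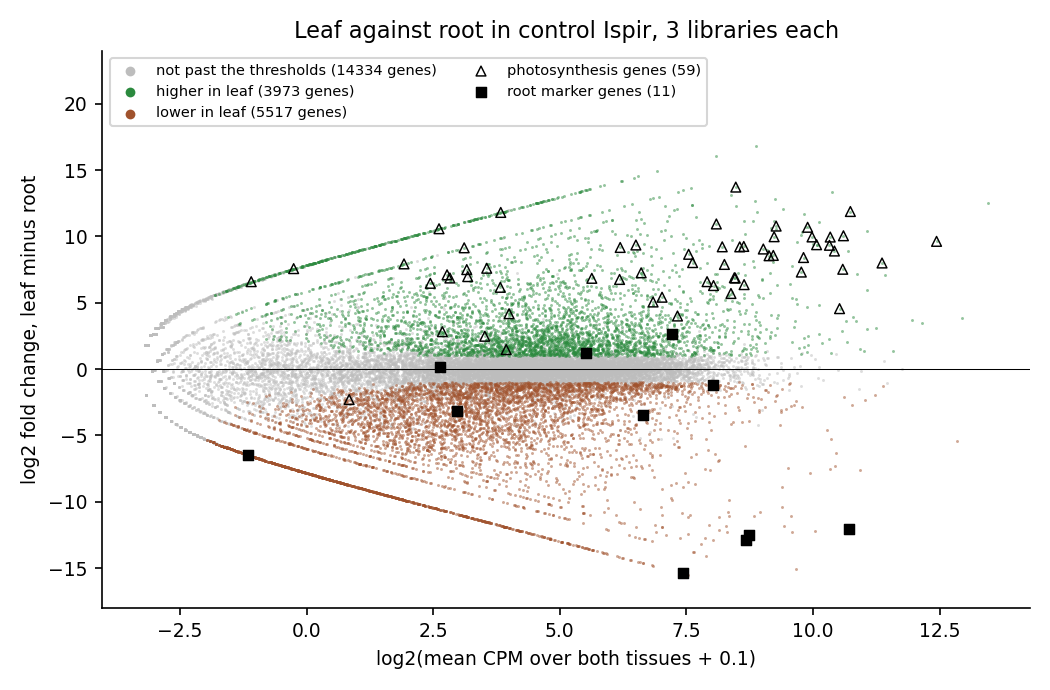
Log2 fold change of leaf over root (vertical axis) against the log2 mean CPM over both tissues with 0.1 CPM added (horizontal axis), 1 point a gene, in control Ispir with 3 libraries a tissue. Green points are the 3973 genes higher in leaf, brown points the 5517 lower in leaf and grey points the 14334 others. Open triangles mark the 59 photosynthesis genes, nearly all above 0, and black squares the 11 root marker genes, of which 4 lie below -12.

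The photosynthesis genes were the clearest group in leaf. The study lists 59 of them, chosen by it on salt responses in these and the other samples, so the list is not independent of the samples. Of the 59, 54 were higher in leaf, 1 was lower and 4 did not pass, beside 16.7% higher and 23.2% lower of all genes. The median log2 fold change was 7.89, or 7.53 with genes at 0 in roots set to their bound, against -0.15 for all genes. The summed level of the 59 genes was 29346, 54224 and 103540 CPM in the leaf libraries, against 311, 343 and 331 CPM in the root libraries. These genes took 5.50% ± 3.14 of the counts in leaf libraries and 0.0366% ± 0.0022 in root libraries (SD, n = 3 each, exact permutation test, two-sided p = 0.1, the smallest that 3 against 3 can give). The 4 genes at 0 in all root libraries were all antenna genes, and 9 of the 59 had at most 3 counts in each root library. These markers therefore separate the libraries labelled leaf from those labelled root. In whole tissues, fewer cells of a type and less RNA per cell cannot be told apart.

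The 23 antenna genes had a median log2 fold change of 8.65, or 7.93 with genes at 0 in roots set to their bound. Lhcb1 (Phvul.002G196400, chromosome 2, 36094319 to 36095316), a protein of the main light-harvesting complex, had 5293, 10943 and 17040 CPM in leaves, against 13.9, 14.8 and 13.3 CPM in roots (log2 fold change 9.63 ± 0.64 SE, adjusted p = 4.57e-05). This 1 gene took 0.981% of leaf counts on average, against 0.00156% of root counts. Lhcb5 (Phvul.007G113000), a minor antenna protein, had 95, 310 and 1728 CPM in leaves, against 0, 0 and 0.132 CPM in roots. With only 2 counts in all root libraries, the ratio was 17311 with an exact interval of 4792 to 142949. This interval and the later ones of its kind pool the libraries of a tissue and cover counting error only, not the spread between libraries. The call of Lhcb5 was lost without root library 3 (adjusted p = 0.011). Lhcb2 (Phvul.008G285100) had 1469, 4608 and 9658 CPM in leaves, against 22.1, 18.4 and 21.1 CPM in roots. The leaf libraries were far apart for all of these genes, but every leaf value was above every root value.

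Of the 23 antenna genes, 19 were higher in leaf and none lower. The 4 that did not pass were all Lhcb1 copies with few or no counts in roots and very unequal leaf libraries. In Phvul.004G093200 the leaf libraries had 0.952, 4.80 and 30.4 CPM and the root libraries were at 0, at least 59.9-fold higher in leaf (adjusted p = 0.020, or 0.0074 without leaf library 1). Phvul.002G154500 and Phvul.002G154700 had at most 4.16 CPM in any leaf library and 0 in all root libraries. Phvul.004G093000 had 1.27, 6.47 and 45.6 CPM in leaves, against 0, 0.344 and 0.0659 CPM in roots (adjusted p = 0.0105, and 0.0022 and 0.0095 without leaf library 1 or 3). DESeq2 called both Phvul.004G093000 and Phvul.004G093200 higher in leaf. Several Lhcb1 copies lie near each other on chromosome 4, and how reads shared by copies were counted is not stated, so single copies are uncertain. Called copies could also lose their calls without any 1 root library. Without root library 1, 2 or 3 the adjusted p was 0.030, 0.048 and 0.032 for Phvul.004G091600 and 0.024, 0.021 and 0.028 for Phvul.004G092600. The log2 fold changes then were 8.69, 11.1 and 8.68 for Phvul.004G091600 and 7.04, 9.15 and 7.34 for Phvul.004G092600. Calls over all genes fell from 9490 to 7064, 7072 and 7500 in these fits.

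The antenna of photosystem I was as distinct. Lhca2 (Phvul.010G121400) had 2132, 3221 and 4883 CPM in leaves, against 0.333, 1.17 and 1.19 CPM in roots (log2 fold change 11.88 ± 0.70 SE). A second Lhca2 gene (Phvul.009G225500) had 15.5, 20.7 and 48.8 CPM in leaves and was at 0 in all 3 root libraries, at least 141-fold higher in leaf. Lhca3 (Phvul.008G289700) had 1952, 2948 and 4405 CPM in leaves, against 2.66, 3.78 and 2.31 CPM in roots. The antenna gene with the smallest log2 fold change was Lhcb4 (Phvul.010G002100), at 4.56 ± 0.53 (SE). It had 1309, 2299 and 4861 CPM in leaves, and its root level of 112, 120 and 127 CPM was the highest in roots of the list.

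**Figure D2:**
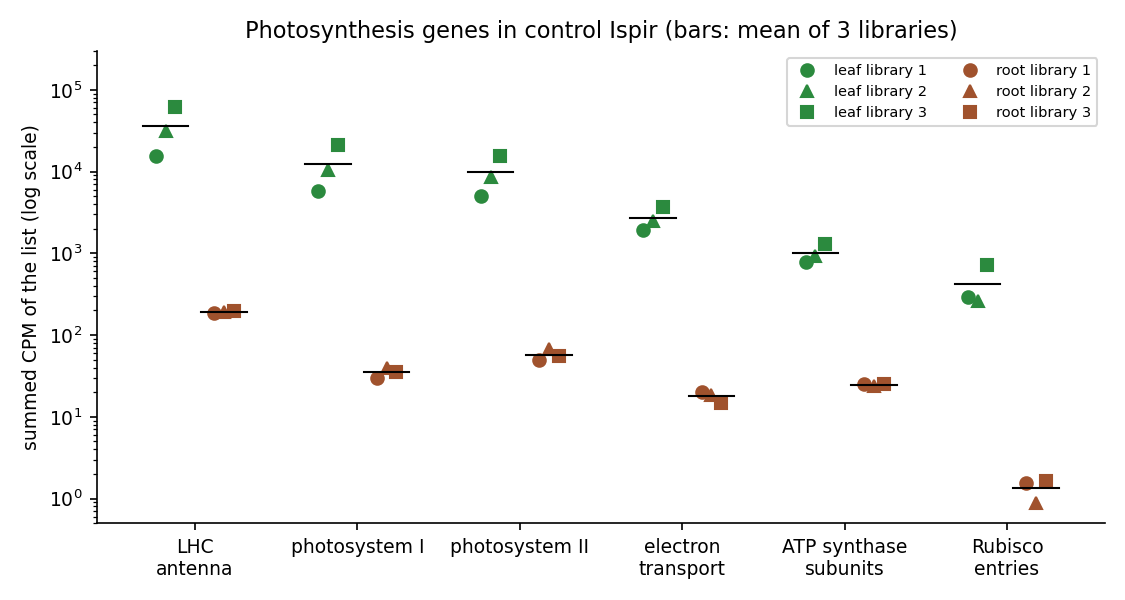
Summed CPM (vertical axis, log scale) of the 6 groups of photosynthesis genes (horizontal axis) in the 3 leaf and the 3 root libraries of control Ispir, with bars at the mean of 3 libraries. In every group all leaf points lie above all root points, and the spread is wide in leaf, where the antenna sums were 15438, 31523 and 61022 CPM, and narrow in root, where they were 184, 192 and 197 CPM.

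All 10 photosystem I genes were higher in leaf, with a median log2 fold change of 9.22. PsaH (Phvul.010G148800), a subunit at the side where antenna proteins dock, had 576, 969 and 2159 CPM in leaves, against 0.399, 0.962 and 0.725 CPM in roots (log2 fold change 10.78 ± 0.77 SE). The lowest of them, PsaK (Phvul.002G140800), still had a log2 fold change of 5.06 ± 0.63 (SE). Of 14 photosystem II genes, 13 were higher in leaf. PsbO (Phvul.002G024000), of the oxygen-evolving complex, had 1375, 2245 and 4057 CPM in leaves, against 3.92, 4.604 and 3.36 CPM in roots. PsbS (Phvul.009G125100), which acts in the harmless release of excess light energy, had 630, 676 and 1069 CPM in leaves, against 1.66, 1.24 and 0.989 CPM in roots.

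Psb28, a protein that takes part in the assembly of photosystem II, was the exception. Its gene Phvul.001G165200 had 0.635, 0.574 and 0.492 CPM in leaves, against 2.93, 3.92 and 1.58 CPM in roots (log2 fold change -2.30 ± 0.44 SE, adjusted p = 0.0038). The other Psb28 gene (Phvul.007G153500) had 23.7, 18.6 and 24.9 CPM in leaves, against 7.78, 9.69 and 6.79 CPM in roots (log2 fold change 1.47 ± 0.21 SE). The first call was lost without leaf library 2 or 3 or root library 1 or 2 (adjusted p = 0.018, 0.012, 0.017 and 0.017), which leaves no photosystem II gene lower in leaf.

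Electron carriers, ATP synthase and Rubisco entries were higher in leaf without exception, at 7 of 7, 2 of 2 and 3 of 3 genes. PetE, the plastocyanin gene (Phvul.009G020300), had 350, 472 and 996 CPM in leaves, against 2.73, 2.54 and 2.37 CPM in roots (log2 fold change 7.89 ± 0.52 SE). The ferredoxin gene PetF (Phvul.006G216600) was even across libraries, with 510, 520 and 523 CPM in leaves, against 7.12, 6.87 and 5.74 CPM in roots. It lies on chromosome 6 beside 2 further PetF genes (Phvul.006G216700 and Phvul.006G216800) that were also higher in leaf, with log2 fold changes of 7.5 ± 0.91 and 7.11 ± 0.77 (SE). The ATP synthase gamma gene (Phvul.006G149700) had 549, 636 and 915 CPM in leaves, against 5.45, 7.15 and 5.41 CPM in roots. The 3 Rubisco entries lie within a short stretch of chromosome 4 (9431905 to 9502854) and summed to 295, 260 and 718 CPM in leaves, against 1.53, 0.893 and 1.65 CPM in roots.

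Leaf library 1 was the lowest leaf library for 52 of the 59 photosynthesis genes and leaf library 3 the highest for 57 of them. Over the 17170 genes with a mean of at least 50 counts, these shares were 41.7% and 36.0%. The median ratio of leaf library 3 to leaf library 1 was 4.65 for antenna genes, 3.64 for photosystem I, 2.74 for photosystem II, 2.34 for Rubisco, 2.09 for electron transport and 1.69 for ATP synthase. What set the leaf libraries apart was not tested.

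The root markers were mostly genes for nutrient uptake, with a potassium efflux channel and a signalling peptide gene among them. The study gives no list of root markers. The genes were picked here by name from its own lists, which it chose on salt responses in these and the other samples. The wider transporter lists held both directions, with 3 higher in leaf and 4 lower of 14 for potassium and 1 and 5 of 10 for zinc. A further list of 20 transporters had 7 higher and 7 lower. Of the 11 genes, 6 were lower in leaf, 2 were higher and 3 did not pass, beside 23.2% lower and 16.7% higher of all genes. Their median log2 fold change was -3.45 (-3.17 with genes at 0 set to their bound). Their summed level was 509, 399 and 602 CPM in leaves, against 5683, 5497 and 6750 CPM in roots. The nitrate/nitrite transporter of the NNP family (Phvul.011G083500, chromosome 11, 7892402 to 7895149), which imports nitrate, was at 0 in all leaf libraries and had 526, 342 and 168 CPM in roots, at least 1853-fold lower in leaf. A gene related to ferric reduction oxidase 2 (Phvul.010G101500), which in Arabidopsis reduces iron at the root surface before uptake, had 0.238, 0.209 and 0 CPM in leaves, against 800, 812 and 944 CPM in roots (log2 fold change -12.48 ± 0.59 SE). A manganese transporter (Phvul.009G127900) had 0.635, 1.25 and 0.383 CPM in leaves, against 2974, 2971 and 4057 CPM in roots (log2 fold change -12.07 ± 0.57 SE). For these genes leaf libraries had next to no counts.

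The 3 zinc transporter 10 genes were unequal. Phvul.002G099700 had 0.159, 0.104 and 0.0547 CPM in leaves, against 760, 797 and 884 CPM in roots. Phvul.002G100001, close to it on chromosome 2, had 1.19, 1.67 and 1.75 CPM in leaves, against 14.8, 11.9 and 15.2 CPM in roots (log2 fold change -3.17 ± 0.25 SE). Phvul.003G262400 was at 0 in leaves and at 0.200, 1.37 and 0.527 CPM in roots, and did not pass (adjusted p = 0.019, or 0.0021 with DESeq2). A potassium channel related to GORK (Phvul.008G238100), an outward channel known from guard cells and root hairs of Arabidopsis, had 15.9, 18.9 and 15.1 CPM in leaves, against 193, 147 and 206 CPM in roots.

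Not every root marker was lower in leaf. Ammonium transporter 1 member 2 (Phvul.007G231700) had 298, 253 and 218 CPM in leaves, against 42.8, 48.8 and 32.6 CPM in roots (log2 fold change 2.63 ± 0.21 SE, adjusted p = 9.69e-05). A sulfate transporter 3.1-related gene (Phvul.001G154200) had 49.8, 70.2 and 70.7 CPM in leaves, against 22.8, 20.7 and 38.4 CPM in roots (adjusted p = 0.0084). That call was lost without leaf library 2 or 3 or root library 1 or 2 (adjusted p = 0.028, 0.018, 0.037 and 0.034), and with upper quartile or library size scaling, so that 1 root marker remained higher in leaf. The natural resistance-associated macrophage protein gene (Phvul.003G238600), of a family of metal importers, had 139, 45.5 and 288 CPM in leaves, against 345, 341 and 397 CPM in roots, and did not pass (adjusted p = 0.12). The CLE10-related peptide gene (Phvul.002G081400) had a log2 fold change of 0.19 ± 0.33 (SE).

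**Figure D3:**
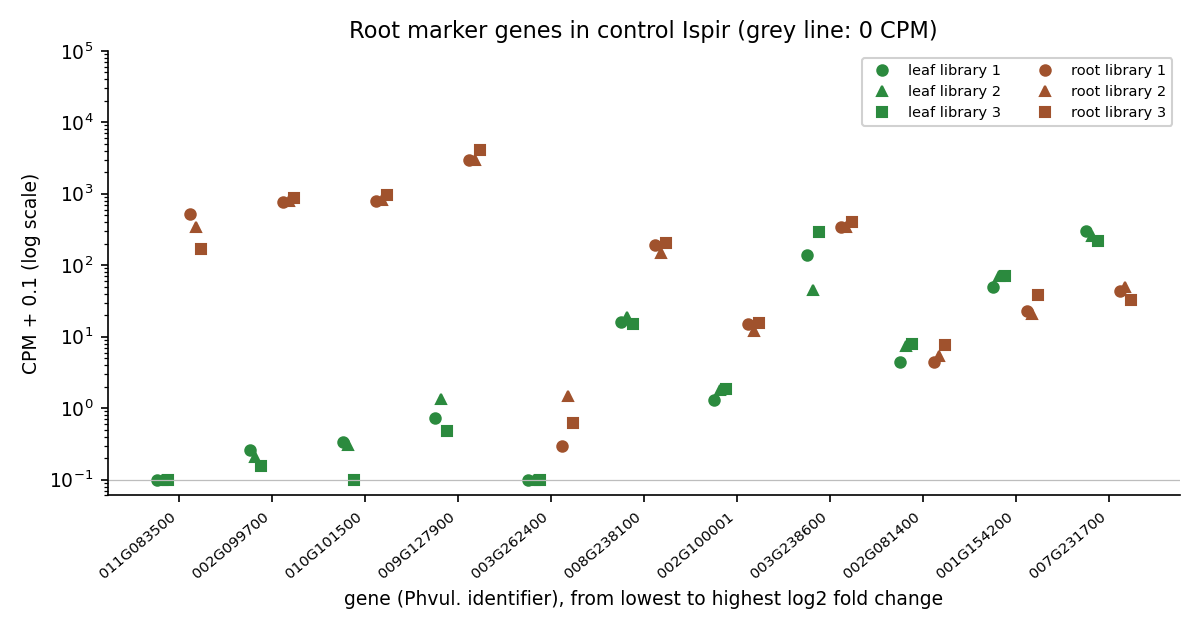
CPM with 0.1 added (vertical axis, log scale) of the 11 root marker genes (horizontal axis, by identifier, ordered by log2 fold change) in the 3 leaf and the 3 root libraries of control Ispir. The grey line marks 0 CPM. Leaf and root points are far apart for the nitrate transporter, the first zinc transporter 10 gene, the ferric reductase-related gene and the manganese transporter at the left, they overlap for the CLE10-related gene, and the order is reversed for the ammonium transporter at the right.

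Genes that the study places on steps of primary metabolism divided between the tissues. Of 64 such genes, 19 were higher in leaf and 15 lower, beside 16.7% and 23.2% of all genes. The study gives a step for each gene and no enzyme name. Among 18 steps with several genes, 3 had genes called in both directions. The step from fructose-6P to PEP, the trunk of glycolysis, had 5 genes higher and 3 lower of 8. On it, Phvul.011G039100 had 1803, 1469 and 2024 CPM in leaves, against 0.865, 2.06 and 1.25 CPM in roots (log2 fold change 10.30 ± 0.45 SE). Phvul.009G006600 had 1016, 1003 and 1416 CPM in leaves, against 3.06, 4.12 and 2.51 CPM in roots. In the other direction, Phvul.007G222900 had 9.45, 9.07 and 5.91 CPM in leaves, against 1385, 1329 and 1635 CPM in roots (log2 fold change -7.48 ± 0.31 SE), and Phvul.001G259000 had 28.3, 11.5 and 13.9 CPM in leaves, against 2560, 2326 and 3386 CPM in roots. The genes of this step were thus called in both directions. Without enzyme names it is not known which of them encode the same enzyme. The summed CPM of the 12 genes grouped here by step as glycolysis was 6140, 6007 and 8392 in leaves, against 4109, 3828 and 5185 in roots. The gene with the largest log2 fold change of the group (Phvul.007G006600, 11.17 ± 0.41 SE) stands on a step the study labels fructose 6P to Therose. It is not on the step from fructose-6P to PEP, but its CPM is part of this sum.

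Of the steps around PEP, that from PEP to oxaloacetate had 1 gene called in each direction. On the step from PEP to oxaloacetate, which PEP carboxylase catalyses, Phvul.005G066400 had 0.397, 0.104 and 0.274 CPM in leaves, against 467, 489 and 734 CPM in roots (log2 fold change -11.13 ± 0.47 SE). The other gene of that step (Phvul.005G095300) had 709, 958 and 610 CPM in leaves, against 152, 173 and 74.8 CPM in roots (log2 fold change 2.51 ± 0.36 SE). The reverse step, from oxaloacetate to PEP, had 1 of 2 genes lower in leaf, and the step from PEP to pyruvate 1 of 3, with none higher in either. The gene from pyruvate to PEP (Phvul.003G098200) had 1034, 1158 and 1085 CPM in leaves, against 2.20, 2.75 and 1.65 CPM in roots (log2 fold change 8.95 ± 0.30 SE). Over all 19 organic acid genes, 5 were higher in leaf and 4 lower, with a median log2 fold change of 0.17. The 47.4% called lay near the 39.8% of all genes. The 3 genes between pyruvate and malate did not pass, with log2 fold changes between -0.29 and 0.17.

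Of 7 sucrose and hexose genes, 2 were higher in leaf, 3 were lower and 2 did not pass (16.7% and 23.2% of all genes), with a median log2 fold change of -0.82. On the reversible step between sucrose and fructose, which sucrose synthase catalyses, Phvul.003G127500 had 17.5, 14.3 and 26.2 CPM in leaves, against 3320, 2949 and 5335 CPM in roots (log2 fold change -7.64 ± 0.46 SE), and it took 0.00172% of leaf counts against 0.429% of root counts. A second gene of the step (Phvul.009G223800) had 105, 52.0 and 42.6 CPM in leaves, against 850, 976 and 1858 CPM in roots. The third (Phvul.001G209600) was higher in leaf, at 37.0, 40.8 and 44.0 CPM, against 6.72, 6.46 and 10.6 CPM in roots. On the step from sucrose to free hexoses, the invertase reaction, Phvul.002G061200 had 1 count in all leaf libraries and 52.4, 31.3 and 17.5 CPM in roots, a root over leaf ratio of 1689 with an exact interval of 303 to 66746. The other gene of this step (Phvul.001G191600) had 1.43, 0.209 and 0.164 CPM in leaves, against 0, 0.275 and 0.0659 CPM in roots, and did not pass. The other called gene, from glucose to fructose-6P (Phvul.008G180200), was higher in leaf, at 35.2, 38.6 and 53.0 CPM, against 7.65, 7.90 and 6.92 CPM in roots. The summed CPM of the 7 sucrose and hexose genes was 253, 206 and 233 in leaves, against 4341, 4078 and 7341 in roots.

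Of 22 amino acid genes, 4 were higher in leaf and 4 lower, and the 36.4% called lay near the 39.8% of all genes. The asparagine gene Phvul.008G259900 had 12154, 18507 and 13594 CPM in leaves, against 1165, 952 and 1001 CPM in roots (log2 fold change 3.83 ± 0.34 SE) and took 1.32% of leaf counts, against 0.116% of root counts. Phvul.006G029100, on the photorespiratory path from glycolate to serine, had 1434, 2079 and 2991 CPM in leaves, against 1.995, 4.05 and 3.69 CPM in roots (log2 fold change 9.38 ± 0.52 SE). Phvul.003G286600, placed on threonine by way of serine and glycine, had 1462, 1924 and 2043 CPM in leaves, against 0.0665, 0.756 and 0.791 CPM in roots. The serine gene Phvul.007G040600 was lower in leaf, at 9.84, 4.33 and 2.57 CPM, against 50.6, 47.2 and 85.2 CPM in roots. Only 2 of the 4 lower calls were left without leaf library 2, root library 1 or root library 2. Of 4 beta-alanine genes, 2 were higher in leaf, and 1 of these calls (Phvul.002G186000, at 0 in roots) was lost without any 1 root library (adjusted p = 0.012, 0.013 and 0.012).

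Of 14 potassium transporters, 3 were higher in leaf and 4 lower, so 50.0% were called, against 39.8% of all genes. K+ efflux antiporter 2 (Phvul.010G095600), whose Arabidopsis counterpart sits in the chloroplast envelope, had 349, 543 and 427 CPM in leaves, against 8.58, 10.9 and 4.81 CPM in roots (log2 fold change 5.77 ± 0.38 SE). The channel named K+ channel in Arabidopsis thaliana 1 (Phvul.011G181800), an inward channel of guard cells in that species, had 93.4, 85.2 and 69.8 CPM in leaves, against 2.73, 3.30 and 3.76 CPM in roots. K+ transporter 1 (Phvul.003G160800) was the lowest in leaf, at 5.72, 5.16 and 5.47 CPM, against 167, 167 and 154 CPM in roots (log2 fold change -4.90 ± 0.14 SE). With DESeq2, 6 were called higher. Among 6 sodium transporters, 1 was higher in leaf and none lower with edgeR, while DESeq2 also called Na+/H+ exchanger 2 (Phvul.006G097100) lower (log2 fold change -1.99, adjusted p = 0.0050). Among 3 magnesium transporters edgeR called none, and Mg+2 transporter 4 (Phvul.008G034033) was higher with DESeq2 (adjusted p = 0.0017) and with edgeR without leaf library 1 (adjusted p = 0.0019). Both calcium transporters had higher mean CPM in leaf, with Ca+2 exchanger 7 (Phvul.001G105400) called at a log2 fold change of 2.08 ± 0.45 (SE). That call was lost without root library 1, 2 or 3 (adjusted p = 0.031, 0.024 and 0.028) and with library size scaling, and without leaf library 3 both passed.

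Of 10 zinc genes, 1 was higher in leaf and 5 were lower, beside 16.7% and 23.2% of all genes, with a median log2 fold change of -3.67 (-2.21 with genes at 0 set to their bound). A further zinc transporter (Phvul.003G021300) had 0.159, 0.365 and 0.328 CPM in leaves, against 576, 598 and 761 CPM in roots, and a zinc-exporting ATPase (Phvul.009G240000) had 11.6, 13.3 and 10.01 CPM in leaves, against 319, 319 and 241 CPM in roots. The one higher in leaf, zinc transporter 11 (Phvul.006G055800), had 325, 256 and 204 CPM in leaves, against 2.79, 3.09 and 3.63 CPM in roots (log2 fold change 6.36 ± 0.26 SE). Of 11 copper genes, 4 were higher in leaf and 3 lower, so 63.6% were called, against 39.8% of all genes. The call of Phvul.008G282200 (46.4, 39.3 and 59.5 CPM in leaves, against 0.399, 0.412 and 0.396 CPM in roots) held without each library in turn, while the list had 2, 1 and 2 higher and 1, 1 and 1 lower without root library 1, 2 and 3, and 7 higher with DESeq2.

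A further list of transporters, taken by name from the study's leaf and root salt lists, had 7 higher and 7 lower of 20 (70.0% called, against 39.8% of all genes). Only 4 higher were left without root library 1 or root library 2. The list includes metal and cation transporters and the nitrate transporter already counted as a root marker. Metal tolerance protein C3-related (Phvul.008G244200), of a family that moves metals into the vacuole, had 1 count in all leaf libraries and 416, 368 and 642 CPM in roots. An amino acid transporter (Phvul.002G235600) had 230, 258 and 208 CPM in leaves, against 5.45, 4.05 and 4.55 CPM in roots (log2 fold change 5.63 ± 0.20 SE). A gene named solute carrier family 13 member (Phvul.004G111900) had 131, 66.7 and 85.8 CPM in leaves and 1 count in all root libraries.

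**Figure D4:**
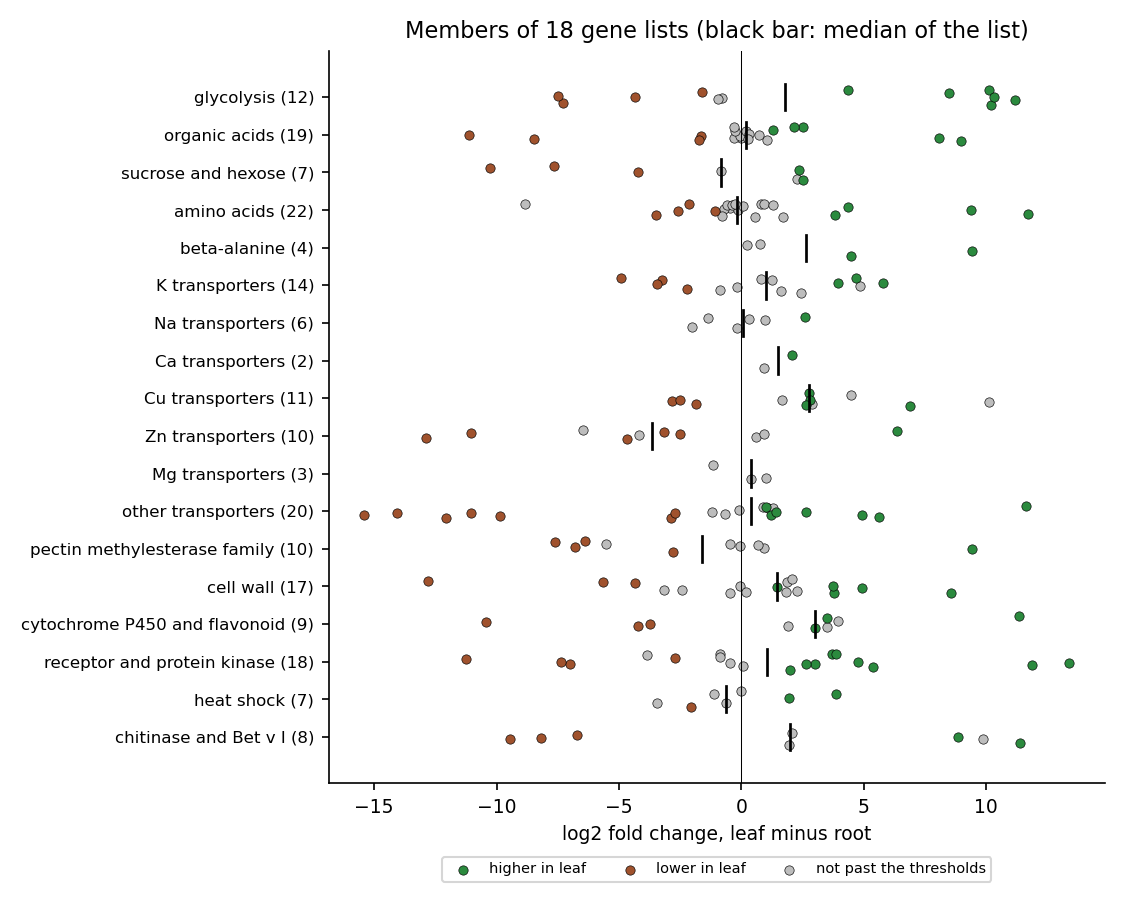
Log2 fold change of leaf over root (horizontal axis) for the members of 18 gene lists (vertical axis, number of genes in brackets) in control Ispir. Green points were higher in leaf, brown points lower and grey points did not pass, and a black bar marks the median of a list. Most lists hold genes of both directions, with zinc transporters mainly at the left.

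Of 17 cell wall genes, 5 were higher in leaf and 3 lower (5 lower without leaf library 3), and the 47.1% called lay near the 39.8% of all genes. A xyloglucan:xyloglucosyl transferase (Phvul.009G233200), an enzyme that cuts and rejoins wall xyloglucan, had 1376, 1862 and 1564 CPM in leaves, against 53.0, 72.8 and 32.1 CPM in roots (log2 fold change 4.93 ± 0.38 SE). A glucan endo-1,3-beta-D-glucosidase (Phvul.011G077900) had 301, 50.1 and 66.6 CPM in leaves, against 0.532, 0.344 and 0.198 CPM in roots. A BURP domain gene (Phvul.011G046300) was at 0 in leaves and at 61.3, 35.1 and 71.2 CPM in roots. In the pectin methylesterase family, 4 of 10 were lower in leaf and 1 higher, so 50.0% were called, against 39.8% of all genes. Methylesterase PCR A (Phvul.002G048700) had 6.98, 4.59 and 7.22 CPM in leaves, against 511, 441 and 632 CPM in roots (log2 fold change -6.40 ± 0.29 SE).

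Neighbouring genes of 1 family could differ. On chromosome 9, the cytochrome P450 gene Phvul.009G061500 (11183955 to 11186049) had 189, 216 and 175 CPM in leaves, against 0, 0.137 and 0.0659 CPM in roots, a ratio of 2900 with an exact interval of 992 to 14066. The next identifier, the cytochrome P450 82C2-related gene Phvul.009G061600, had 1.43, 0.939 and 0.602 CPM in leaves, against 988, 1000 and 2005 CPM in roots (log2 fold change -10.42 ± 0.57 SE). On chromosome 11, the Bet v I gene Phvul.011G183000 had 1, 3 and 0 counts in the leaf libraries and 35.5, 18.8 and 23.1 CPM in roots. Its relatives Phvul.011G183832 and Phvul.011G183900, of the same family of pathogenesis-related proteins, had 3.81, 8.03 and 29.3 CPM and 5.48, 13.97 and 42.6 CPM in leaves, with 1 and 0 counts in all root libraries. Over the 8 chitinase and Bet v I genes, 2 were higher in leaf and 3 lower, beside 16.7% and 23.2% of all genes. The number of higher calls depended on single libraries: 4 were higher without leaf library 1 or leaf library 3, 1 without root library 2 and 0 without root library 3 (edgeR; 4 with DESeq2).

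Of 18 receptor and protein kinase genes, 9 were higher in leaf and 4 lower, beside 16.7% and 23.2% of all genes (2 lower without leaf library 3, root library 1 or root library 2). A protein kinase domain gene (Phvul.001G048600) had 113, 75.5 and 69.1 CPM in leaves and was at 0 in roots, at least 426-fold higher in leaf. A mitogen-activated protein kinase kinase kinase 15-related gene (Phvul.006G148000) had 0.0794, 0.156 and 0.328 CPM in leaves, against 30.0, 30.1 and 41.9 CPM in roots. Of 7 heat shock genes, 2 were higher in leaf and 1 lower, and the 42.9% called lay near the 39.8% of all genes. The alpha crystallin gene Phvul.008G112700 had 145, 150 and 132 CPM in leaves, against 33.5, 31.9 and 46.8 CPM in roots, and heat stress transcription factor b-2b (Phvul.002G155300) had 9.13, 5.48 and 9.52 CPM in leaves, against 35.9, 35.9 and 28.9 CPM in roots. The other call, of the HSP20 gene Phvul.006G046000, was lost without leaf library 2 or root library 1, 2 or 3 (adjusted p = 0.0105, 0.017, 0.014 and 0.016), and 2 genes were lower without leaf library 1. Both lysine catabolism genes stayed short of the thresholds with edgeR, and Phvul.003G126300 passed with DESeq2 (adjusted p = 0.0056) and with edgeR without leaf library 3 (adjusted p = 0.0018). Actin-11 (Phvul.008G011000) was among the reference genes of the study's qPCR, which was run on roots and did not compare leaf with root. It had 346, 203 and 221 CPM in leaves, against 500, 484 and 559 CPM in roots, just outside the thresholds at a log2 fold change of -1.004 ± 0.21 (SE) and adjusted p = 0.01025. It was called lower without leaf library 1, with upper quartile or library size scaling, and with the stricter count filter. Of 10 genes also used for qPCR, 4 were higher in leaf and 4 lower (2 lower without root library 1, 2 or 3).

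Over all 365 genes that the study annotates by name or step, 146 were higher in leaf and 84 lower, 63.0% in all. This includes the lists it chose on the strongest salt responses of Ispir and TR43477. Of 75 listed for leaf, 36 were higher in leaf and 8 lower, and of 117 listed for root, 28 were higher and 48 lower. A difference from the 39.8% of all genes is no independent result, since the study selected these genes on the same libraries.

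The annotated genes with the largest differences came from several groups. Besides those above, the feruloyl-CoA ortho-hydroxylase gene (Phvul.010G036100), an enzyme that in Arabidopsis makes iron-mobilizing coumarins in roots, had 2 counts in all leaf libraries and 1140, 1187 and 2548 CPM in roots, a root over leaf ratio of 40863 with an exact interval of 11312 to 337429. A dienelactone hydrolase-like gene (Phvul.005G151000) was at 0 in leaves and at 170, 146 and 280 CPM in roots, at least 1066-fold lower in leaf. The achaete-scute homolog 3 gene (Phvul.001G126400) had 1 count in all leaf libraries and 209, 217 and 182 CPM in roots. In leaf, a gene of the protease inhibitor, seed storage and lipid transfer protein family (Phvul.008G087000) had 9.37, 16.4 and 62.6 CPM and was at 0 in roots, but its call was lost without leaf library 2 or root library 2 (both adjusted p = 0.011).

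Most genes have no name in the files, the paper or the gene table used. The largest differences among them were Phvul.010G135000, with 727, 663 and 1406 CPM in leaves and 0 in roots (at least 4633-fold higher in leaf), and Phvul.005G100700, with 357, 557 and 702 CPM in leaves and 0 in roots (at least 2678-fold higher). In the other direction, Phvul.007G119178 was at 0 in leaves and at 238, 230 and 644 CPM in roots (at least 1988-fold lower in leaf), and Phvul.011G020400 at 0 in leaves and at 321, 362 and 321 CPM in roots (at least 1796-fold lower). The gene with the most counts in leaf and the one with the most counts in root were also unnamed. The leaf one took 1.99% ± 0.58 of leaf counts and 0.000424% ± 0.000237 of root counts. The root one took 0.0295% ± 0.0143 of leaf counts and 1.60% ± 0.26 of root counts (SD, n = 3 each, exact permutation p = 0.1 for both). Each was picked as the top gene of its tissue in these same libraries, so these p-values are no independent evidence. A few genes held more of the leaf libraries: the 100 most abundant genes took 23.3% ± 3.66 of the counts in leaves and 16.6% ± 1.23 in roots (SD, n = 3 each, exact permutation p = 0.1, and 0.1 after adjustment over 16 shares compared).

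Taken as detection, 851 genes had more than 3 counts in all leaf libraries and at most 3 in every root library, and 1720 genes the reverse, while 17075 genes had more than 3 counts in all 6 libraries. Of the genes of 1 tissue, 479 leaf genes and 785 root genes reached a mean of 50 counts in that tissue. The annotated genes among them were 32 in leaf, among them antenna genes, and 30 in root, such as the nitrate transporter and the first zinc transporter 10 gene. Leaf libraries 2 and 3 were deeper than all root libraries, so a root gene at 0 in leaf met a lower detection limit than a leaf gene at 0 in root.

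Along the chromosomes of the P. vulgaris v2.1 assembly, the share of genes higher in leaf lay between 14.8% on chromosome 3 and 20.7% on chromosome 4, and the share lower in leaf between 19.8% on chromosome 4 and 25.0% on chromosome 7. Where 2 adjacent genes were both called, they had the same direction in 2483 pairs and opposite directions in 1499, that is 62.4% with the same direction. The share for called genes in random order was not computed, and no test of this share was made. The longest run of adjacent called genes of the same direction held 10 genes lower in leaf on chromosome 11 (7091970 to 7150917, median log2 fold change -8.002), and the next were 9 genes higher in leaf on chromosome 8 (2365315 to 2422993, median 3.31) and 9 lower in leaf on chromosome 8 (49984957 to 50399243, median -6.31). No gene of these 3 runs is annotated by name.

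The same comparison in control TR43477 gave 5404 called genes (22.6%). Of 9437 genes called in Ispir and tested in both, 4588 were called in the same direction in TR43477, which is 48.6% of those called in Ispir and 85.2% of the 5382 called in TR43477, 10 were called in the opposite direction, and 9036 had the same sign. TR43477 libraries were more variable, with a biological coefficient of variation of 0.483 against 0.312 in Ispir, and the photosynthesis genes summed to 804 CPM by library size in TR43477 root library 3, against 280 and 270 in the other two. A direct test of the difference between the genotypes, over 12 libraries, called 119 genes (0.487%), 57 above 0 and 62 below, with edgeR, and 1146 with DESeq2. Leaving out single libraries gave 16 to 165 genes: 77, 28 and 66 without Ispir leaf library 1, 2 and 3, 16, 23 and 38 without Ispir root library 1, 2 and 3, and 34, 34 and 37 without TR43477 root library 1, 2 and 3.

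Among annotated genes, 2 of these differences passed. The zinc transporter 10 gene Phvul.002G100001 had 1.14, 1.59 and 1.67 CPM in Ispir leaves and 14.2, 11.4 and 14.5 CPM in Ispir roots, against 1.52, 1.06 and 1.73 CPM in TR43477 leaves and 226, 177 and 143 CPM in TR43477 roots. Its difference (Ispir minus TR43477) was 3.80 ± 0.35 on the log2 scale (SE, adjusted p = 0.0010), with root levels apart and leaf levels overlapping. The fructose-6P to PEP gene Phvul.009G006600 had 969, 957 and 1352 CPM in Ispir leaves and 2.92, 3.94 and 2.39 CPM in Ispir roots, against 2978, 2501 and 3263 CPM in TR43477 leaves and 1.13, 1.05 and 1.32 CPM in TR43477 roots (difference -2.81 ± 0.39 SE, adjusted p = 0.0071). A GMC oxidoreductase gene (Phvul.011G136600) fell just short (difference -4.67 ± 0.73 SE, adjusted p = 0.0103), with 4.17, 4.58 and 3.55 CPM in Ispir leaves and 39.8, 31.6 and 95.1 CPM in TR43477 leaves.

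Salt-treated Ispir shares no library with control Ispir, but the control Ispir libraries enter both the difference between genotypes and that between control and salt. There, leaf against root gave 10532 called genes (44.2%, with 18.3% higher in leaf and 25.9% lower). Of 9467 genes called in control plants and tested in both, 7446 were called in the same direction with salt, which is 78.7% of those called in control plants and 70.8% of the 10519 called with salt, 63 were called in the opposite direction, and 9080 had the same sign. The test of the difference between control and salt called 1104 genes (4.55%), 681 above 0 (2.81%) and 423 below (1.74%). Without salt leaf library 2 or 3 it called 483 and 553, without control root library 1, 2 or 3 it called 479, 498 and 613, and without salt root library 1, 2 or 3 it called 666, 698 and 644. Among the 373 genes with a name, a step or a qPCR primer it called 88, 60 above 0 and 28 below, but these were chosen by the study for salt responses in the same libraries. Root marker genes summed to 6278 to 7282 CPM by library size in control roots and to 830 to 1983 in salt-treated roots.

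**Figure D5:**
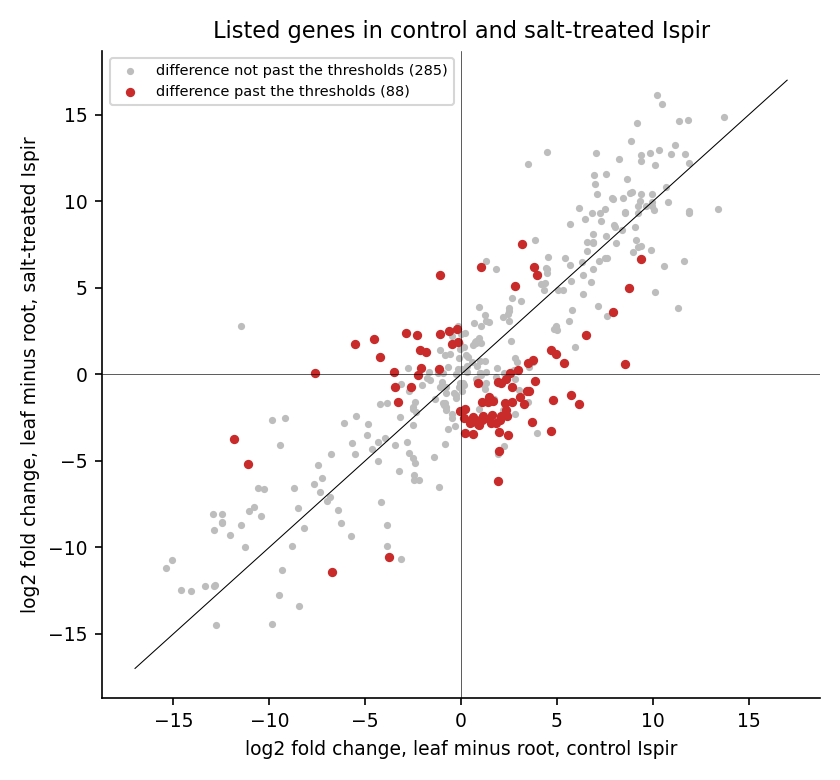
Log2 fold change of leaf over root in salt-treated Ispir (vertical axis) against that in control Ispir (horizontal axis) for 373 genes with a name, a step or a qPCR primer. Red points are the 88 genes whose difference between control and salt passed the thresholds, grey points the 285 others, and the diagonal marks equal values. Of the 88 red points, 62 had opposite signs in control and salt, and most grey points lie near the diagonal.

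The ammonium transporter 1 member 2 gene, higher in leaf in control plants, had the opposite direction with salt. It had 290, 246 and 212 CPM in control leaves and 41.6, 47.4 and 31.7 CPM in control roots, against 101, 69.6 and 86.2 CPM in salt-treated leaves and 223, 371 and 238 CPM in salt-treated roots (difference 4.33 ± 0.35 SE, adjusted p = 0.000113, edgeR). The CML24-related gene Phvul.001G126700, of a family of calcium-binding proteins, had 177, 149 and 137 CPM in control leaves and 72.3, 77.8 and 59.95 CPM in control roots, against 14.5, 14.6 and 15.6 CPM in salt-treated leaves and 99.0, 75.7 and 75.7 CPM in salt-treated roots (difference 3.62 ± 0.23 SE, adjusted p = 4.98e-05). The GMC oxidoreductase gene, with a log2 fold change of 1.03 ± 0.27 in control (SE, adjusted p = 0.016), was at 70.1, 78.3 and 103 CPM in salt-treated leaves and 0.838, 1.43 and 1.28 CPM in salt-treated roots (difference -5.10 ± 0.34 SE).

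Several genes that marked the tissues in control plants had a fold change of another size with salt, and Psb28 had the opposite direction. The GORK-related channel had a log2 fold change of -3.45 ± 0.19 in control and -0.76 with salt, with root levels of 188, 143 and 200 CPM in control and 41.8, 54.5 and 45.0 CPM with salt. The PEP to oxaloacetate gene Phvul.005G066400 had 454, 475 and 714 CPM in control roots and 34.8, 57.1 and 140 CPM in salt-treated roots, and a difference of -5.87 ± 0.84 (SE). For Psb28 (Phvul.001G165200), the photosystem II gene that was lower in leaf in control plants, salt-treated leaves had 31.7, 50.7 and 85.8 CPM and salt-treated roots 22.3, 5.21 and 8.997 CPM (difference -4.51 ± 0.82 SE, adjusted p = 0.0053), while the log2 fold change in control TR43477 was 1.09. Of the 59 photosynthesis genes, Psb28 and PsbY (Phvul.001G257100, difference -2.23 ± 0.45 SE) were those whose difference between control and salt passed.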

How the data were processed

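Leaf and root mRNA was sequenced from hydroponic plants. According to the study's methods, poly(A) libraries were made with the TruSeq Stranded mRNA kit, sequenced as pairs on a NovaSeq instrument, trimmed with Trimmomatic, aligned with HISAT2 to the P. vulgaris v2.1 genome and counted with SeqMonk v1.44.0. The deposited values are raw counts per gene from the authors, one table per genotype and tissue, with 27213 genes in each. How strand, overlapping genes and reads shared by gene copies were counted is not given in the sources used here. The authors' deposited p-value, adjusted p-value and log2 fold change columns hold their own comparisons of salt with control, and none was used.

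The 6 columns of control Ispir, from a leaf and a root table, were joined by gene, and 23824 genes with at least 1 count were kept. Leaf was tested against root with edgeR 4.0.16 (TMM normalization, quasi-likelihood test, Benjamini-Hochberg adjustment over all genes tested) in R 4.3.3. Calls needed an adjusted p under 0.01 and a log2 fold change beyond 1 in either direction, as in the study. Standard errors were derived from the fold change and the F value. CPM are counts divided by the TMM-scaled library size. The fits with control TR43477 or with salt-treated Ispir held 12 libraries each, with a tissue by genotype or tissue by treatment term, and CPM printed for those differences come from those fits. A fold against a tissue at 0 was set against 3 counts in each library, and with 1 to 3 counts in all a ratio with an exact 95% interval is given. That interval uses counts pooled over the libraries of a tissue and leaves out the spread between libraries. Shares were compared with the exact permutation test over the 20 assignments of libraries.

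Genes were named and grouped from the study's own annotation, since 0 of the identifiers were found in the RefSeq gene table used. The members and lists were chosen with earlier results of these data known. Genes in the text are members of the functional lists that were called or lie on a step with called genes, the 10 largest differences in each direction, the most abundant genes, the qPCR genes and Actin-11, of which the report gives a part, and members of the study's leaf and root salt lists outside these are given as counts. Alternatives covered normalization, filters, other tests (DESeq2 1.42.0 among them), thresholds, a replicate block and leaving out each library. The fits were tested on simulated data. p-values measure the spread between the 3 libraries of a group. Leaf and root libraries were not paired in the fits, because neither the labels nor the methods say that a number marks a shared plant. If they came from the same plants, leaf and root libraries are not independent.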

Additional observations from a re-analysis of the deposited data

Results flagged for a closer look

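The following results stand out because the difference between leaf and root itself differed between groups, by edgeR's test of the interaction at an adjusted p under 0.01. Groups of 3 libraries allow no test for single deviating libraries. Values are log2 differences of the leaf over root fold change, and no explanation was tested. All genes here were listed by the study, which chose most of them for salt responses in these libraries.

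Between control Ispir and control TR43477 (Ispir minus TR43477), 2 of the annotated genes differed, where the number of such calls over all genes moved from 119 with edgeR to 1146 with DESeq2: zinc transporter 10 (Phvul.002G100001) by 3.80, and the fructose-6P to PEP gene Phvul.009G006600 by -2.81.

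Between control and salt-treated Ispir (control minus salt), several transporter and calcium genes differed. Potassium channel and antiporter genes had differences of 3.35 (Phvul.011G181800), -2.62 (the GORK-related Phvul.008G238100) and -1.74 (K+ efflux antiporter 3, Phvul.002G216200). The ammonium transporter Phvul.007G231700 had 4.33, the copper transport protein Phvul.007G070001 had -3.09, and the ATP-binding cassette transporter Phvul.001G130700 had -5.17. Ca+2 exchanger 7 (Phvul.001G105400) had 2.65, the Ca+2-transporting ATPase Phvul.002G011400 had 1.47, and the CML24-related Phvul.001G126700 had 3.62.

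Among metabolic genes, the PEP to oxaloacetate gene Phvul.005G066400 had -5.87, the sucrose to fructose gene Phvul.001G209600 had 2.71, and the aspartate to beta-alanine gene Phvul.006G087600 had 2.28. The asparagine gene Phvul.008G259900 had -2.30, the glutamate gene Phvul.001G076400 had -1.79 and the isoleucine gene Phvul.009G166100 had -3.46. Both photosystem II genes, Psb28 (Phvul.001G165200) and PsbY (Phvul.001G257100), were below 0, at -4.51 and -2.23.

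In the remaining groups, the glucan endo-1,3-beta-D-glucosidase gene Phvul.011G077900 had 8.08, the isoflavone hydroxylase gene Phvul.009G244200 had 6.91, the flavonol synthase-related gene Phvul.008G166000 had -5.17 and the pectin methylesterase inhibitor family gene Phvul.006G130500 had -7.47. The SPX domain gene Phvul.008G069400 had -6.52, the ring zinc finger gene Phvul.007G061000 had 3.84, heat stress transcription factor b-2b (Phvul.002G155300) had -2.37 and the GMC oxidoreductase gene Phvul.011G136600 had -5.10. A pair of unnamed qPCR genes had 4.47 and 4.84.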

How the results depend on the processing

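The number of genes that differed between leaf and root of control Ispir (9490) stayed within 1.5 times under every alternative: 9461 with RLE normalization, 9597 with upper quartile scaling, 9970 with library size alone, 9189 with edgeR's own filter, 9295 with no filter, 11368 with the likelihood ratio test, 11030 with the exact test, 6811 when tested against the fold threshold, 10648 with DESeq2, 10521 with all 12 Ispir libraries in 1 fit, 11430 at an adjusted p of 0.05, and 7064 to 10020 when 1 library was left out. Of 171 genes named by rule, 135 stayed on the same side of the threshold throughout, and no call was reversed. Small fold changes that did not pass could change sign, as for Phvul.006G087600 (0.23, and as low as -0.30 when 1 library was left out). With a replicate block, 7960 genes differed between leaf and root. Deviations of same-numbered leaf and root libraries correlated at 0.16, 0.028 and 0.062, all above 0. Between differently numbered libraries the correlations lay between -0.11 and 0.043, and only that of leaf library 2 with root library 3 was above 0. Leaf library 2 correlated best with root library 3, and the other leaf libraries with the root library of their own number. All values are small, and they do not settle whether a number marks a shared plant. The block also gave 0 genes for the difference between genotypes (3255 at an unadjusted p under 0.05) and 519 for that between control and salt. The difference between genotypes (119 genes) had 1146 with DESeq2, 1050 with the likelihood ratio test, 712 at an adjusted p of 0.05 and 16 to 165 without 1 library. That between control and salt (1104 genes) had 2551 with DESeq2, 2653 with the likelihood ratio test, 2779 at an adjusted p of 0.05 and 479 to 1532 without 1 library. The larger share of the 100 top genes in leaf was 6.76 percentage points (5.03 to 8.68 without 1 library) and 2.94 for the top 10. The photosynthesis share differed by 5.47 points (3.77 to 6.86). The causes of these changes were not tested. At these depths (12743363 to 21320920 counts), genes near 3 counts cannot be told from 0.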

Other observations

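Over the leaf libraries of the series, the 59 photosynthesis genes summed to 27280, 48776 and 89069 CPM by library size in control Ispir. They summed to 51049, 65172 and 88505 in salt-treated Ispir, to 56372, 74015 and 107320 in control TR43477, and to 12719, 12788 and 12074 in salt-treated TR43477.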
